A study of Homo sapiens with 2 samples.

Results

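Cells sense oxygen through the hypoxia-inducible factors (HIFs), and 10 genes of this system were followed here in a lung cancer line and its drug-resistant derivative. They were taken by symbol from a table of 18944 genes: the HIF alpha genes HIF1A and EPAS1, the ubiquitin ligase gene VHL, the prolyl hydroxylase genes EGLN1 and EGLN3, and the hypoxia targets CA9, ADM, ANKRD37, BNIP3 and BNIP3L, which lie outside glycolysis. All 10 symbols were present in the table. H1993 is an established human lung adenocarcinoma line with amplification of MET, a receptor tyrosine kinase gene. One RNA sequencing library came from the parental line, labelled as treated with the solvent DMSO, and 1 from a derivative labelled as treated with PHA665752, which inhibits the MET kinase. The labels' protocols state that the derivative was grown in PHA665752 raised from 1 nM to 1 µM, then held at 1 µM, with 1 week off the drug ahead of the experiments. Whether the derivative is a single clone, and the oxygen level and density of the cultures, are not given in the sources used here.

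In cells with enough oxygen, the EGLN enzymes hydroxylate prolines of the HIF alpha proteins, and the VHL protein, part of a ubiquitin ligase, then binds them for destruction by the proteasome. When oxygen is short the alpha subunits persist, pair with ARNT and bind short DNA elements beside target genes. EGLN3, CA9, ADM, ANKRD37 and BNIP3 are widely known targets of this kind in tumour cells. Because the alpha subunits are controlled mainly as proteins, their RNA levels, which are what was measured, do not give HIF activity.

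The parental library held 16723181 counts and the resistant library 17086748. With 1 library per group there was no replicate check and no p-value, and every difference describes these 2 libraries. In bulk RNA, fewer cells that express a gene and less RNA per cell cannot be told apart. Levels are given as CPM, counts scaled to a common library size, and differences as the log2 ratio of resistant over parental or as a fold, with a 95% interval that covers counting error only. A gene was tested when it reached 1 CPM in at least 1 library, and was called when it differed at least 2-fold with an interval that excluded no difference. The parental and resistant libraries had the epithelial keratin gene KRT8 at 2666 and 3394 CPM and KRT18 at 1964 and 2468 CPM. The adhesion gene EPCAM was at least 2-fold lower, at 389 and 164 CPM (log2 ratio -1.25), and CDH1, at 309 and 192 CPM (-0.69), and KRT19, at 777 and 504 CPM (-0.63), also had ratios below 0. The lung transcription factor gene NKX2-1 was low, at 4.16 and 5.95 CPM, and the alveolar genes NAPSA and SFTPB had 0 and 2 counts in each library. Of 14 markers of leukocytes, endothelium and fibroblasts 4 reached 1 CPM in a library. The fibroblast marker gene COL1A1 stood at 20.7 and 14.3 CPM and the endothelial marker gene CDH5 at 0.297 and 29.2 CPM. The leukocyte marker genes PTPRC and CD14 had 21 and 7 counts and 5 and 33 counts, both called, in opposite directions. Among the markers under 1 CPM in both libraries, PECAM1, VWF, DCN, CD3E and COL1A2 had at most 1 count in either. CSF1R had the most of these, with 9 and 1 counts. The part of these marker differences in the results below was not tested.

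BNIP3, a mitochondrial receptor for mitophagy, and ADM, which encodes the vasodilator peptide adrenomedullin, were at least 2-fold higher in the resistant library. They were 2 of the 7 genes that could be tested, beside 12.1% of all 12245 tested genes called higher. None of the 7 was at least 2-fold lower, beside 8.29% of all tested genes. The remaining 5 (HIF1A, EPAS1, VHL, EGLN1 and BNIP3L) stayed within 2-fold. CA9, EGLN3 and ANKRD37 were under 1 CPM in both libraries and could not be tested. The interval lay above 0 for 4 of the 7 genes, beside 36.7% of all tested genes, and below 0 for 2, beside 37.4%. The median log2 ratio of the 7 was 0.46, against 0.00 over all tested genes.

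**Figure D1:**
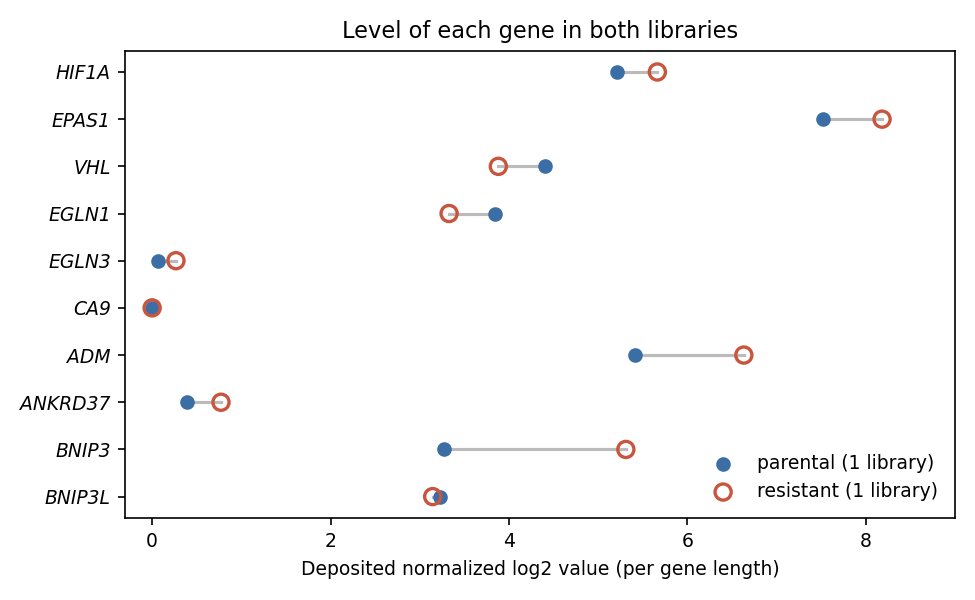
Deposited normalized log2 value of each of the 10 genes (x axis, a scale that takes gene length into account) in the parental library (filled blue) and the resistant library (open red), 1 library each. EPAS1 has the highest value in both libraries, at 7.53 and 8.19, CA9 lies at 0 in both, and the widest gaps are those of BNIP3 and ADM.

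The HIF alpha genes were both somewhat higher in the resistant library, short of the 2-fold rule. HIF1A, which encodes the broadly expressed alpha subunit, had 2426 counts (144 CPM) in the parental and 3373 counts (199 CPM) in the resistant library. Its level was 1.38-fold higher (95% interval 1.31 to 1.45). EPAS1, which encodes HIF-2 alpha, had 15903 counts (945 CPM) and 25375 counts (1495 CPM). It was 1.58-fold higher (1.55 to 1.61), a ratio above that of 82.2% of the tested genes, where HIF1A stood above 76.3%. EPAS1 passes a 1.5-fold rule and HIF1A does not.

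CPM values do not correct for transcript length, so levels of different genes were set side by side with the deposited log2 values, which behave as a per-length scale. On that scale EPAS1 stood at 7.53 and 8.19 and HIF1A at 5.21 and 5.67 in the parental and resistant libraries. Taken back to a linear per-length scale, EPAS1 RNA was 5.09 times HIF1A RNA in the parental library and 5.83 times in the resistant one. The change of the EPAS1 to HIF1A ratio, which needs neither library scaling nor gene length, was 1.15-fold (1.09 to 1.21). EPAS1 was the more abundant alpha RNA in both libraries.

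VHL and EGLN1, which act in turn on the HIF alpha proteins, were both somewhat lower. VHL, the substrate-binding subunit of the ligase, had 1537 counts (91.3 CPM) in the parental and 1053 counts (62.0 CPM) in the resistant library, 1.47-fold lower (1.36 to 1.59). EGLN1, which encodes PHD2, the main HIF prolyl hydroxylase in most cells, had 1607 counts (95.5 CPM) and 1101 counts (64.9 CPM), also 1.47-fold lower (1.36 to 1.59). Both had a log2 ratio of -0.56, and 18.0% of the tested genes had a lower one. Neither passed the 2-fold rule or a 1.5-fold rule.

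EGLN3, which encodes PHD3, a hydroxylase that is itself a strong hypoxia target, was barely detected. It had 2 counts (0.119 CPM) in the parental and 9 counts (0.530 CPM) in the resistant library. The ratio of 4.46-fold has an interval of 0.924 to 42.4-fold, so a difference was not detectable at this depth. Reads on EGLN3 may also be shared with SPTSSA, which overlaps it on the same strand in the GENCODE annotation and had 1612 and 2377 counts. On the linear per-length scale EGLN1 RNA was 294 times EGLN3 RNA in the parental and 44.5 times in the resistant library, a ratio that rests on the few EGLN3 counts. EGLN2, the third hydroxylase gene of the family, differed the other way from EGLN1. It had 1297 counts (77.0 CPM) in the parental and 2023 counts (119 CPM) in the resistant library, 1.55-fold higher (1.44 to 1.66). Its deposited log2 value of 5.91 in the resistant library was above that of EGLN1 at 3.33, as it was in the parental library, at 5.29 against 3.84.

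**Figure D2:**
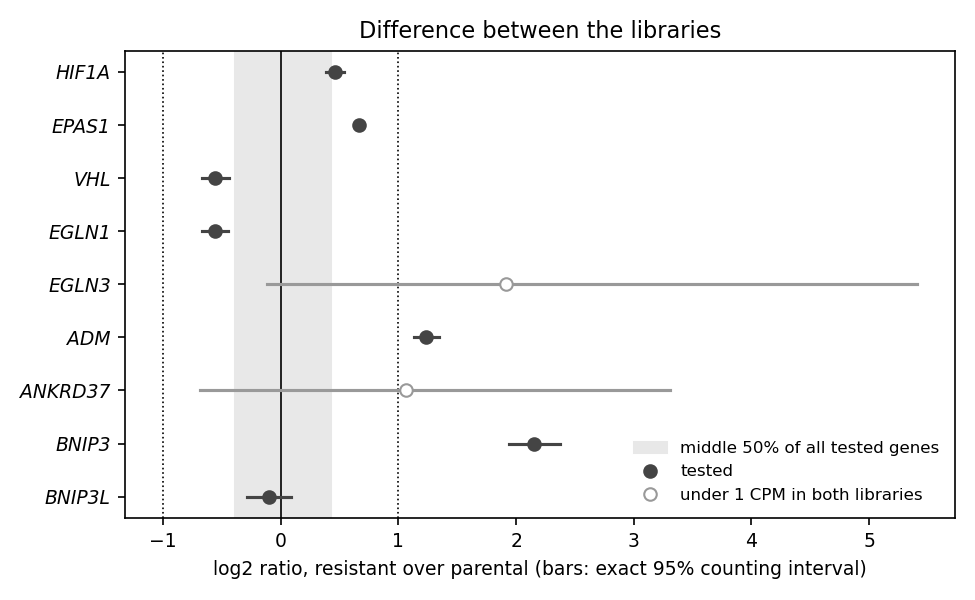
Log2 ratio of resistant over parental for the 9 genes with a count (points) with exact 95% counting intervals (bars); dotted lines mark 2-fold, grey shading the middle 50% of all tested genes (-0.39 to 0.43). BNIP3 at 2.15 and ADM at 1.24 lie wholly beyond 2-fold, and the open points EGLN3 and ANKRD37, under 1 CPM in both libraries, have intervals that cross 0.

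Other components of the HIF pathway differed in both directions, mostly within 2-fold. Of 17 listed genes 15 were in the table under a matching symbol, ELOB and ELOC not being matched, and 14 were tested. Of these, 1 (7.14%) was at least 2-fold higher and 0 were lower, beside 12.1% and 8.29% of all tested genes, with a median log2 ratio of -0.02. The exception was CITED4, which encodes a CBP/p300-binding protein, at 3.33 CPM in parental and 19.3 CPM in resistant cells (log2 ratio 2.53). Its relative CITED2, a HIF-inducible protein that competes with the alpha subunits for CBP/p300, was at 66.7 and 126 CPM (0.92), short of the rule. The obligate partner gene ARNT was at 38.9 and 37.2 CPM (-0.06), and HIF1AN, the asparagine hydroxylase that blocks coactivator binding, at 94.3 and 101 CPM (0.10). The coactivator genes EP300 (0.03) and CREBBP (-0.19), and CUL2 (0.04) and RBX1 (-0.11) of the VHL ligase, also differed little. SIAH1 (-0.91) and SIAH2 (-0.64), ubiquitin ligases that act on EGLN proteins, had ratios below 0 without passing, as did OS9 (-0.42), the gene with the most counts. The partner gene ARNT2 (0.32) and the membrane prolyl hydroxylase gene P4HTM (-0.51) did not pass either, and HIF3A had 0 and 2 counts.

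The promoters were searched for the short element that HIF binds. HIF recognises a core of ACGTG or GCGTG. Both letter strings were searched on both strands in the 250 bases before each RefSeq start site (GRCh38.p14). Of 35116 such windows 18.5% held ACGTG, 32.2% held GCGTG and 43.2% held either. Promoters of 8 of the 10 genes were searched. Those of VHL and BNIP3L were not searched, which does not show that these genes lack a listed promoter or either string. ACGTG was found for 4 of the 8, and either string for 7, counting a gene when any of its promoters matched. The shares above are of single windows, whatever their G and C content, so they are not a like background for these counts. The stretches below show the match nearest the start site (an ACGTG where there is one) with up to 40 bases on each side and no transcribed base. They are printed 5′ to 3′ on the strand of the gene, with every match in capitals, a match on the other strand reading CACGT or CACGC. BNIP3 and ADM are shown as the genes called higher, and EGLN1, CA9 and ANKRD37 as the other genes that hold ACGTG. EGLN1 was tested and not called, and CA9 and ANKRD37 were too low to be tested.
BNIP3, chr10:131982012-131982096, minus strand: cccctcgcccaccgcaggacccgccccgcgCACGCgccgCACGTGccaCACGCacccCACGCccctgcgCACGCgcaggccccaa
ADM, chr11:10304932-10305016, plus strand: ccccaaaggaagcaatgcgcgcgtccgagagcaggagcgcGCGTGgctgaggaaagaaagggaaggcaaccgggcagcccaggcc
EGLN1, chr1:231422288-231422340, minus strand: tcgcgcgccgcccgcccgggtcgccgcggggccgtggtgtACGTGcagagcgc
CA9, chr9:35673870-35673927, plus strand: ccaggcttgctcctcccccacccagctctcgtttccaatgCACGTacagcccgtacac
ANKRD37, chr4:185396658-185396742, plus strand: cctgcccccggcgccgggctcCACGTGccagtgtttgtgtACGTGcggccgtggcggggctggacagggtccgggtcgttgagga

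The BNIP3 window held 6 matches, 2 of them ACGTG on opposite strands of the same CACGTG, and the ANKRD37 window held 3, again with a CACGTG read on both strands. ADM had a single GCGTG that starts 101 bases before the start site. EGLN1 and CA9 each had a single ACGTG, starting 13 and 18 bases before it. HIF1A and EPAS1 each had 1 GCGTG in a promoter, a further HIF1A promoter had 0, and EGLN3 had 0 in this window. G and C made up 60.4% (CA9) to 81.6% (BNIP3) of the 250-base windows behind the stretches printed. A match is a description of the letters, and binding was not measured.

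BNIP3, whose protein sits in the outer mitochondrial membrane and links mitochondria to the autophagy machinery, showed the widest difference of the 7 tested genes. It had 216 counts (12.8 CPM) in the parental and 971 counts (57.2 CPM) in the resistant library. The level was 4.46-fold higher (3.84 to 5.19), and 94.1% of the tested genes had a lower ratio. RefSeq lists 46 pseudogenes named after BNIP3, all without a row in the count table, and how reads that fit several copies were counted is not stated. The BNIP3 value is therefore uncertain by an unknown amount.

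BNIP3L, which encodes the closely related mitophagy receptor NIX, did not differ in the same way. It had 484 counts (28.8 CPM) and 456 counts (26.9 CPM), and the fold of 1.07 lower has an interval of 0.940 to 1.22 that includes no difference. PNMA2, which overlaps BNIP3L on the opposite strand, had 7 and 43 counts. On the linear per-length scale BNIP3 RNA was 1.03 times BNIP3L RNA in the parental library and 4.93 times in the resistant one. The ratio of the pair differed 4.76-fold between the libraries (3.92 to 5.79). The receptor RNAs stood nearly level in the parental library, and BNIP3 exceeded BNIP3L in the resistant one.

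ADM had 1007 counts (59.8 CPM) in the parental and 2391 counts (141 CPM) in the resistant library. The level was 2.35-fold higher (2.19 to 2.54), and 90.0% of the tested genes had a lower ratio. On the deposited log2 scale ADM was at 5.42 and 6.64, next below EPAS1 among the 10 genes in both libraries. In the parental library HIF1A, VHL, EGLN1, BNIP3, BNIP3L, ANKRD37, EGLN3 and CA9 followed in that order. In the resistant library the order was the same except that BNIP3, at 5.31, stood above VHL (3.88) and EGLN1 (3.33). No replicate gives the spread that would separate neighbours such as BNIP3 (3.27) and BNIP3L (3.23) in the parental library.

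CA9, the cell-surface carbonic anhydrase used as a hypoxia marker in tumours, had 0 counts in both libraries. Up to 3 counts are compatible with a count of 0, or 0.178 CPM for the parental and 0.177 CPM for the resistant library. ANKRD37, an ankyrin repeat gene known mainly as a HIF-1 target, had 4 counts (0.238 CPM) and 9 counts (0.530 CPM). Its ratio of 2.23-fold has an interval of 0.623 to 9.92-fold, so no difference was detectable. UFSP2, which overlaps ANKRD37 on the opposite strand, had 314 and 340 counts. CA9, ANKRD37 and EGLN3 were at or near the detection limit in both libraries, while ADM and BNIP3 had 2391 and 971 counts in the resistant one.

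**Figure D3:**
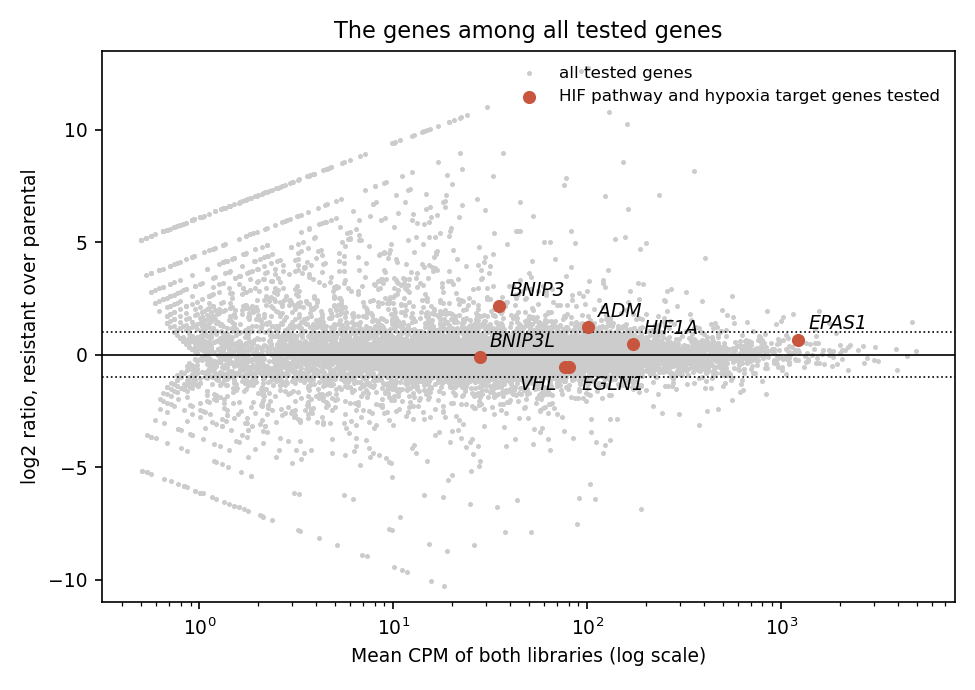
Log2 ratio of resistant over parental (y axis) against the mean CPM of both libraries (x axis, log scale) for all 12245 tested genes (grey) and the 7 tested HIF pathway and target genes (red); dotted lines mark 2-fold. BNIP3 and ADM lie above the upper line, and the other 5 lie between the lines.

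Other hypoxia targets outside glycolysis were spread in both directions. Of 40 listed genes 35 were tested, with 9 (25.7%) at least 2-fold higher and 6 (17.1%) lower, beside 12.1% and 8.29% of all tested genes, and a median log2 ratio of -0.04. Named after their values were seen, PPP1R3C, TMEM45A and CA12 reached 1 CPM in the resistant library only, and CXCR4 in the parental only. CXCR4 was called lower and the others higher, the only direction open to each. Among those called with at least 10 CPM, the hormone gene STC1 was at 3.03 CPM in parental and 10.1 CPM in resistant cells (log2 ratio 1.73), and PLOD2, a collagen lysyl hydroxylase, at 90.2 and 278 CPM (1.62). On the lower side, the clock-related repressor gene BHLHE41 was at 229 and 11.2 CPM (-4.35). NDRG1, among the most widely used hypoxia markers, was at 65.2 and 10.8 CPM (-2.59), opposite to ADM and BNIP3. MXI1, a MYC antagonist, was at 16.3 and 4.95 CPM (-1.71). The iron uptake receptor gene TFRC, with the most counts, was at 825 and 589 CPM (-0.49). The angiogenic factor gene VEGFA, named after its value was seen, was at 74.4 and 157 CPM (1.08).

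Glycolytic targets were also split. All 22 listed genes were tested, with 4 (18.2%) higher and 3 (13.6%) lower, beside 12.1% and 8.29% of all tested genes, and a median log2 ratio of 0.09. The glucose transporter genes differed in opposite directions, with SLC2A3 at 1.54 and 39.2 CPM (4.64) and SLC2A1 at 204 and 59.8 CPM (-1.77). The lactate exporter gene SLC16A3 was at 80.0 and 422 CPM (2.40) and the aldolase gene ALDOC at 6.77 and 17.0 CPM (1.32). PDK3, a kinase that inhibits pyruvate dehydrogenase, was at 106 and 11.2 CPM (-3.24). PFKFB3, a regulator of phosphofructokinase activity, was at 71.6 and 35.3 CPM (-1.02), a call lost with the deposited log2 values (-0.95). On the linear per-length scale PFKFB3 stood at 17.0 and 8.35. The enolase gene ENO1, with the most counts, was at 1958 and 2281 CPM (0.22).

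Since BNIP3 acts in mitophagy, the other adaptors and receptors of that process were listed as well. Of 20 genes, all tested, 6 (30.0%) were higher and 1 lower, beside 12.1% and 8.29% of all tested genes, with a median log2 ratio of 0.09. The LC3-family gene GABARAPL1, whose relatives are bound by BNIP3 and BNIP3L, was at 2.67 and 35.9 CPM (3.73). The cargo adaptor genes SQSTM1, with the most counts, and TAX1BP1 were at 511 and 1781 CPM (1.80) and at 133 and 361 CPM (1.44). The remaining higher genes, named after their values were seen, were MAP1LC3A (1.41), OPTN (1.37) and FUNDC1 (1.13), the last encoding another hypoxia-linked mitophagy receptor. The call of the lower gene was not made at a minimum of 5 CPM or with the deposited log2 values. SQSTM1 is also known as a target of the stress-responsive transcription factor NRF2.

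Carbonic anhydrase genes other than CA9 differed in both directions. Of 14 genes, 6 had 0 counts in both libraries and 7 were tested, 4 of them higher and 3 lower, beside the same 12.1% and 8.29%. Of the higher genes CA8, CA12 and CA13, the last named after its value was seen, reached 1 CPM in the resistant library only. CA2, among the lower genes, reached it in the parental library only. Each of these could only be called in the direction it was. CA8, which encodes a family member without enzyme activity, had 0 and 523 counts and was at least 173-fold higher. The mitochondrial CA5B, at 18.4 and 8.54 CPM (-1.10), and CA10, at 26.0 and 12.1 CPM (-1.10), were lower, though not with the deposited log2 values (-0.74 and -0.94). On the linear per-length scale CA5B stood at 3.03 and 1.41 and CA10 at 9.16 and 4.29. The other lower gene, CA2, which encodes a cytosolic enzyme, was named after its value was seen. It had 103 and 1 counts, 104-fold lower (18.2 to 4141), and was also lower with the deposited log2 values (-2.28). CA12, the membrane enzyme most often paired with CA9 in tumours, had 1 and 30 counts, named after its value was seen, for a ratio of 29.8-fold (4.95 to 1214). The CA12 call was not made at a minimum of 5 CPM or with the deposited log2 values (0.49). CA12 is also counted among the other hypoxia targets outside glycolysis.

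Genes of the adrenomedullin receptor complex had no counts. CALCRL, which encodes the receptor, and RAMP2 and RAMP3, which encode the partners that make it bind adrenomedullin, had 0 counts in both libraries. Of 10 listed genes 4 were tested, with 2 higher and 0 lower, beside the same 12.1% and 8.29%. PAM, the enzyme that amidates the peptide and the gene with the most counts, was at 73.5 and 141 CPM (0.94), short of the rule. The 2 higher genes, named after their values were seen, were the scavenger receptor gene ACKR3, with 0 and 122 counts (at least 40.3-fold), and the peptidase gene MME, with 0 and 58 counts (at least 19.2-fold). Both were tested through the resistant library only, so they could only be called higher.

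**Figure D4:**
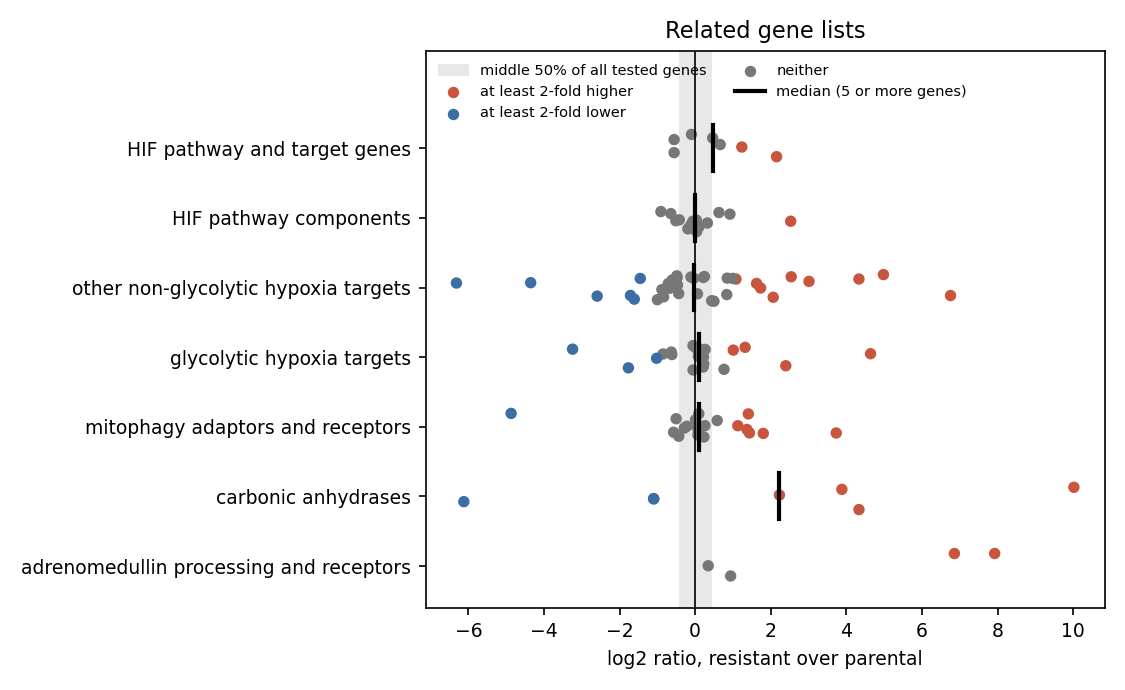
Log2 ratio of resistant over parental for the tested genes of each list (points; red at least 2-fold higher, blue at least 2-fold lower, grey neither), with the list median as a black bar where 5 or more genes were tested and the middle 50% of all tested genes shaded. Medians of the other HIF components and of both further target lists lie between -0.04 and 0.09, with targets on both sides.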

How the data were processed

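RNA sequencing counts of 2 H1993 libraries, parental and resistant to PHA665752, were analysed, grouped by sample title. The header of the resistant columns lacks the first letter of that sample's description, so this match was inferred. The authors deposited raw counts per gene symbol, per the file headers. The submitters' processing notes name FastQC, the aligner STAR and the builds GRCh38 and hg19, without roles. The counting program, annotation and strand setting are not given in the sources used here.

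The authors also deposited normalized log2 values, so named per the file headers, with no method given. Of 9483 genes with at least 100 counts in both libraries, 96.8% had the same ratio of count to linear value (2 to the value, less 1) in both within 5%. The length this ratio implies followed the longest GENCODE transcript across 9323 genes (Spearman rho 0.82, a description across genes). The values were therefore read as log2 of a per-length level plus 1.

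Library sizes were scaled by TMM (edgeR 4.0.16, R 4.3.3). The log2 ratio had 0.5 added to each count. Exact conditional binomial 95% intervals (Clopper-Pearson, scipy 1.17.1) used the counts without that addition. Reads are not independent molecules, so intervals and the floor of 3 counts cover counting error only. Ratios between related genes have Woolf intervals. A fold given as "at least" sets the observed count against 3 counts in the library at 0. The calculation was tested on data simulated with counting error only, which does not bear on the spread between cultures. A gene at 1 CPM through a single library could only differ in that direction.

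Promoters came from RefSeq (GRCh38.p14), and overlaps from GENCODE v29. Genes named beyond the 10 were, per list, up to 3 called genes in each direction with at least 10 CPM in a library, the gene with the most counts, and the HIF components. Some genes that this rule takes are not reported here. The 10 genes and all lists were chosen with earlier results of these data known. DESeq2 1.42.0 size factors, other filters, pseudocounts and call rules, and the deposited log2 values served as alternatives.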

Additional observations from a re-analysis of the deposited data

How the results depend on the processing

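BNIP3 and ADM were called higher under all 8 alternatives, with log2 ratios of 2.04 to 2.17 and 1.22 to 1.25. None of the 10 genes was called lower under any of them. With the 1.5-fold rule EPAS1 was called higher as well. The counts over all tested genes moved to 2358 higher and 2012 lower with the 1.5-fold rule and to 926 and 591 with the deposited log2 values, and 655 were lower when the whole interval had to lie beyond 2-fold. With the 1.5-fold rule, 3 HIF components were higher and 2 lower, and 12 of the other non-glycolytic targets and 6 of the glycolytic targets were lower. At a minimum of 5 CPM, as with the deposited log2 values, 0 mitophagy genes were lower and 1 adrenomedullin gene was higher. When the whole interval had to lie beyond 2-fold, and with the deposited log2 values, 1 carbonic anhydrase gene was lower. Fewer genes pass a stricter rule and more a looser one by construction. The deposited log2 values, read as log2 of a level plus 1, shrink differences between low levels, also by construction. How far this accounts for the lower counts with those values was not tested. The other 113 recomputed counts of called genes stayed within 1.5 times, and the 61 recomputed log2 ratios of single genes stayed within their intervals. No paired analysis was possible because each group holds 1 library. The depth limits EGLN3, ANKRD37 and CA9, for which only wide intervals or upper limits can be given.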
